A study of Mus musculus with 4 samples.

Results

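The genes described here were 10 endoplasmic reticulum (ER) thiol oxidoreductases, taken by gene symbol from a table of 27179 rows. They comprised 4 genes for membrane-anchored thioredoxin-related proteins (Tmx1, Tmx2, Tmx3 and Tmx4) and 6 genes for soluble isomerases of the ER lumen (P4hb, Pdia3, Pdia4, Pdia6, Txndc5 and Erp44). Every member had a row, and all 10 were among the 11184 genes expressed highly enough to be tested. The cells were group 2 innate lymphoid cells (ILC2s), tissue-resident lymphocytes that secrete IL-5, IL-13 and amphiregulin. WT C57BL/6 mice were the source, and cells sorted from their large intestine were expanded for 5 days with 10 ng/mL each of IL-33, IL-25, IL-7 and IL-2. RNA-Seq was performed on 2 control libraries and on 2 libraries of cells given deoxycholic acid (DCA) at 100 μM. DCA is a secondary bile acid made by gut bacteria. The controls are titled Ctrl and are described in the study's methods as cells without DCA. They are called vehicle here. The deposited design text gives 16 hours of treatment and the study's methods give 24 hours. No source used here says whether the libraries of a treatment came from separate cultures or animals, so p-values measured only the spread between libraries, which may be technical.

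Proteins that enter the secretory pathway form their disulfide bonds in the ER, where thioredoxin-fold enzymes make, break and rearrange these bonds through an active site that usually holds a pair of cysteines. Soluble isomerases are kept in the lumen by a retrieval signal at the C terminus, whereas TMX proteins span the ER membrane and can work on clients that lie beside it. Secretory cells depend on this machinery, and many of its soluble members are known targets of the unfolded protein response (UPR), the program that raises folding capacity when misfolded proteins build up.

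The active sites are shown because they are the feature that sets Tmx2 apart within the family. They were read from the main coding transcripts of GENCODE vM21 on GRCm38, 5′ to 3′ along the coding strand, with the 4 active-site codons in capitals. Genes are shown by a window that lies within a single exon, and the other such window of P4hb is not printed. The windows of Pdia6 and Erp44 span introns, and that of Tmx3 (Cys-Gly-His-Cys) is not printed here.
Tmx1 (chr12:70456017-70456044, plus strand, Cys-Pro-Ala-Cys): ctccctggTGTCCTGCTTGTcagaatct
Tmx2 (chr2:84673530-84673557, minus strand, Ser-Asn-Asp-Cys): ccaactggTCTAATGATTGCcaatcctt
Tmx4 (chr2:134639805-134639832, minus strand, Cys-Pro-Ser-Cys): ctccatggTGTCCATCCTGCcagcagac
P4hb (chr11:120571697-120571724, minus strand, Cys-Gly-His-Cys): ccccgtggTGTGGCCACTGCaaagctct
Pdia3 (chr2:121434859-121434886, plus strand, Cys-Gly-His-Cys): ccccttggTGTGGCCACTGTaagaatct
Pdia4 (chr6:47796744-47796771, minus strand, Cys-Gly-His-Cys): caccctggTGTGGGCACTGCaagcagct
Txndc5 (chr13:38510191-38510218, minus strand, Cys-Gly-His-Cys): ctccgtggTGCGGTCACTGCaaagctct
Each TMX gene encoded 1 such site, and Tmx2 alone among the 10 genes had serine in place of the N-terminal cysteine. The TMX sites differed from each other, whereas each site of P4hb, Pdia3, Pdia4, Pdia6 and Txndc5 read Cys-Gly-His-Cys. P4hb, Pdia3 and Pdia6 carried 2 sites, and Pdia4 and Txndc5 carried 3. Erp44, which retains its clients in the early secretory pathway, had 1 site of the form Cys-Arg-Phe-Ser, lacking the C-terminal cysteine. The 6 soluble proteins ended in Lys-Asp-Glu-Leu or a close relative of it (Gln-Glu-Asp-Leu in Pdia3, Lys-Glu-Glu-Leu in Pdia4, Arg-Asp-Glu-Leu in Erp44), and the 4 TMX proteins did not. Tmx2 ended in Lys-Lys-Asp-Lys and Tmx3 in Lys-Lys-Lys-Asp, lysine-rich tails of the kind known to return membrane proteins to the ER.

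The libraries held between 26564059 and 244165712 counts, DCA replicate 2 being by far the deepest. Correlations of log expression over the tested genes were 0.872 for the vehicle pair, 0.932 for the DCA pair and 0.884 to 0.915 across treatments, so the vehicle libraries were less alike than any pair taken across treatments. The 13 ILC2 markers, which include the genes of the secreted products Il5, Il13 and Areg, summed to 18510 to 23410 CPM (counts scaled to library size). Il5 alone gave 7727 to 12334 CPM of this, and Thy1 was at or near 0 (0 to 4.24 CPM). Summed T cell markers were 11.2 to 26.7 CPM, mostly from Cd3g (10.5 to 25.6 CPM), with Cd4 and Cd8a at 0. B and plasma cell markers summed to 41.8 to 60.1 CPM, mostly from Cd79b (37.5 to 55.2 CPM), with Mzb1 at 0. Epithelial markers summed to 8.29 and 13.5 CPM in vehicle and to 7.74 and 9.01 CPM in DCA libraries. For ILC3s the sum was 0 to 1.49 CPM. For mast cells and basophils it was 158.9 to 362.7 CPM, almost wholly from Kit. Macrophage and monocyte markers summed to 24.7 and 24 CPM in vehicle and to 7.3 and 10.2 CPM in DCA libraries, carried by Cd68, with Csf1r, Cd14 and Fcgr1 at 0. The part of other cells in the results that follow was not tested. In bulk RNA, fewer cells of a type and less RNA per cell cannot be told apart.

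Levels of different genes were compared as CPM per kb of transcript, scaled to effective library size by TMM. Soluble isomerases made up most of the transcripts of this set. Pdia3, the isomerase that works with calnexin and calreticulin on glycoproteins, was highest at 622 to 741 CPM per kb. Pdia6, which also associates with the chaperone BiP, followed at 432 to 497, and their ranges did not overlap. P4hb, the founding protein disulfide isomerase and a subunit of prolyl 4-hydroxylase, had a mean of 198.5 CPM per kb, and Pdia4, a large isomerase of the same family, had 187.8. These neighbours overlapped in range. Tmx2 came next with a mean of 69.6 CPM per kb, below Pdia4 in 4 of 4 libraries by a factor of 2.32 to 3.57.

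Tmx2 was thus the most abundant TMX transcript and lay at the level of the lower soluble isomerases. Its level was 56.5 and 59.6 CPM per kb in vehicle and 90.2 and 71.8 in DCA libraries. Erp44 averaged 63.0 and Txndc5 54.1 CPM per kb, and the ranges of Tmx2 and Erp44, of Erp44 and Txndc5, and of Txndc5 and Tmx1 overlapped. Tmx1, a reductase that favours membrane-bound clients, averaged 40.3 CPM per kb. Tmx3, a TMX protein with a Cys-Gly-His-Cys site like that of the soluble isomerases, averaged 11.6, and its range lay apart from that of Tmx1. Tmx4 was lowest at a mean of 5.49 CPM per kb, with a range that overlapped that of Tmx3.

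Tmx2 exceeded Tmx1 by an average factor of 1.73 when the main transcript set the length and of 2.00 when all exons did, and in 4 of 4 libraries on either scale. With the coding length, or with no division by length, Tmx2 was still first on average (factors of 1.33 and 1.41) but led in 3 of 4 libraries, Tmx1 being higher in vehicle replicate 1. The order Tmx2, Tmx1, Tmx3, Tmx4 held on each of these 4 scales.

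**Figure D1:**
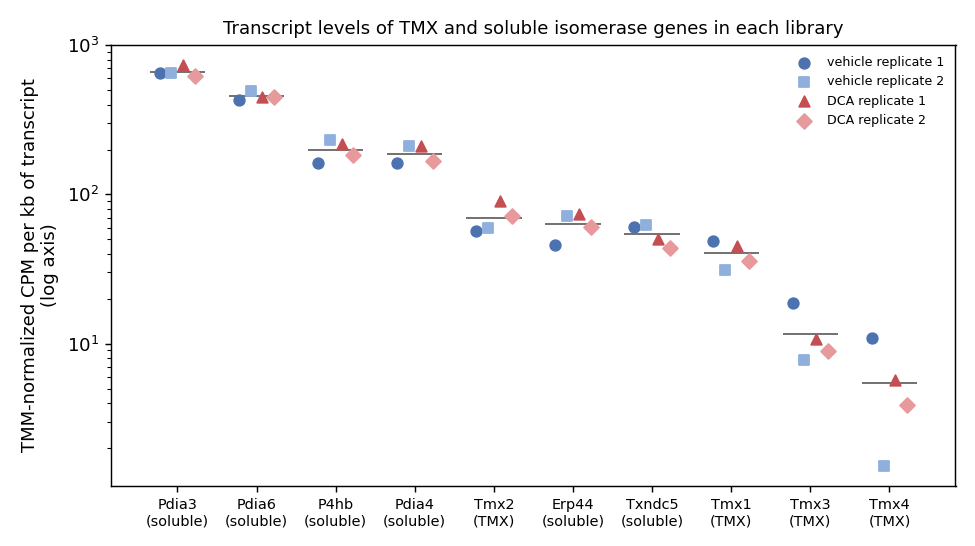
Level of each gene in each library, as TMM-normalized CPM per kb of transcript on a log axis, ordered by the mean of the 4 libraries (grey line). Pdia3 and Pdia6 sit at 432 or above, Tmx2 is level with Erp44 and Txndc5, and Tmx4 spans 1.52 to 10.8.

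Summed over the group, soluble isomerases reached 1510 and 1727 CPM per kb in vehicle and 1737 and 1524 in DCA libraries. The 4 TMX genes together reached 135 and 99.8 CPM per kb in vehicle and 152 and 120.5 in DCA libraries. Soluble transcripts therefore outnumbered TMX transcripts by a factor of 11.2 and 17.3 in vehicle and of 11.4 and 12.7 in DCA libraries. The DCA libraries lay between the vehicle libraries in this ratio, and the difference in its log2 (TMX over soluble, DCA minus vehicle) was 0.21, against an SD between replicates of 0.32.

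The shares of Tmx1, Tmx2 and Tmx3 in the TMX group were nearly constant in 3 of the 4 libraries. That of Tmx4 was not, at 1.52% in vehicle replicate 2, 3.76% in DCA replicate 1 and 3.22% in DCA replicate 2. Tmx2 supplied 59.7% of TMX transcripts per length in vehicle replicate 2, 59.3% in DCA replicate 1 and 59.6% in DCA replicate 2. In vehicle replicate 1 its share was 41.9%, with more Tmx1, Tmx3 and Tmx4. The TMX sum without Tmx2 was 78.5 and 40.2 CPM per kb in vehicle and 61.8 and 48.7 in DCA libraries, so the DCA values again lay between the vehicle values. Pdia3 supplied 37.8% to 42.9% of the soluble transcripts.

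**Figure D2:**
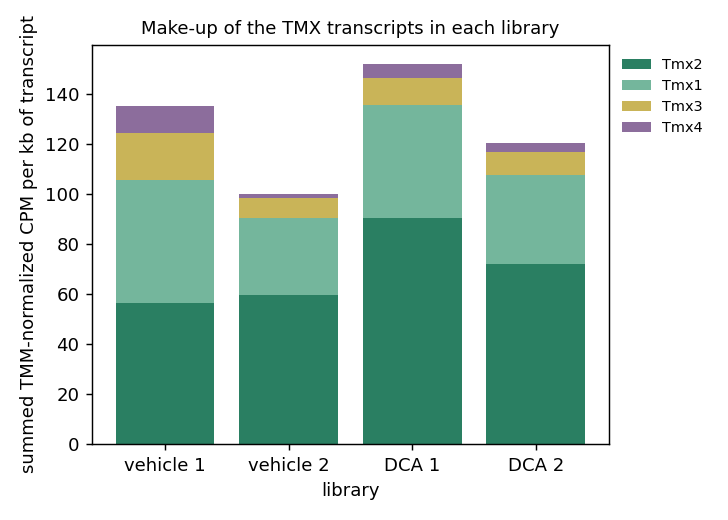
Stacked levels of the 4 TMX genes in each library, as TMM-normalized CPM per kb of transcript. Tmx2, the lowest segment, is 41.9% of the stack in vehicle replicate 1 and close to 60% in the other libraries.

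To ask whether DCA altered these transcripts, vehicle and DCA libraries were compared gene by gene in edgeR by quasi-likelihood, fitted on all 11184 tested genes. None of the 10 members passed an adjusted p of 0.05, nor did any of the genes tested (0%), and none of the members had an unadjusted p under 0.05, which 4.27% of all genes had (478 genes). Both DCA libraries lay above both vehicle libraries for 1 member, Tmx2, against 18.6% of all genes, and below them for 1 member, Txndc5, against 14.7%. These counts of 1 in 10 were no higher than the background. The median log2 fold change was -0.17 for the 4 TMX genes (2 positive, 2 negative) and 0.01 for the 6 soluble genes (4 positive, 2 negative), beside 0.01 over all genes tested. The TMX median was positive with limma (0.11 and 0.13 at pseudocounts of 1 and 0.1) and with the replicate number as a block (0.13). The adjusted p rounded to 0.999 for each member (edgeR, Benjamini-Hochberg).

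Tmx2 had the largest positive estimate of the 10 genes. It measured 129.0 and 136.0 CPM in vehicle and 205.9 and 164.0 CPM in DCA libraries. The groups were separate, with the vehicle libraries close together and DCA replicate 1 the highest. The fold change was 1.40 (95% interval 0.928 to 2.10), or 0.48 ± 0.24 (SE) on the log2 scale, with an unadjusted p of 0.0931 from edgeR. Across 9 other ways of scaling, filtering or fitting the same 4 libraries, the log2 fold change was 0.45 to 0.48 and the unadjusted p 0.0846 to 0.116. When single libraries were left out it ran from 0.30, without DCA replicate 1 (unadjusted p = 0.437 from edgeR), to 0.64. Of the exonic bases of Tmx2, 252 (10.8%) were shared with the overlapping gene model Gm28635 on the same strand. No row of the deposited counts carried that symbol, and how such reads were assigned is not given in the sources used here.

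Tmx1 did not separate the treatments. It measured 136.7 and 86.4 CPM in vehicle and 126.8 and 100.3 CPM in DCA libraries, so both DCA values fell between the vehicle values. Its log2 fold change was 0.02 ± 0.32 (SE), and the 95% interval ran from -0.75 to 0.80.

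Tmx3 (chr18:90510154-90543267 on GRCm38.p6, plus strand) measured 86.4 and 36.0 CPM in vehicle and 49.6 and 41.1 CPM in DCA libraries. Vehicle replicate 1 stood above the other libraries, which lay close together. The log2 fold change was -0.43 ± 0.47 (SE; 95% interval -1.58 to 0.71). Leaving out vehicle replicate 2 gave -0.93 and leaving out vehicle replicate 1 gave 0.31, so the sign rested on which vehicle library was used.

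Tmx4, a TMX protein with reductase activity, varied most. It had 59.4 and 8.33 CPM in vehicle and 31.3 and 21.3 CPM in DCA libraries. The vehicle values differed by 2.70 on the log2 scale and enclosed both DCA values, which differed by 0.54. The low value came from 218 counts (exact Poisson 95% interval 190.02 to 248.94, which covers counting error only, reads not being independent molecules). Among 3663 genes within a factor of 2 of its mean level, 2.89% differed as much between the vehicle libraries. The log2 fold change was -0.37 ± 0.86 (SE; 95% interval -2.44 to 1.71) and ranged from -1.18 to 1.63 when vehicle replicate 2 or vehicle replicate 1, respectively, was left out.

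The vehicle libraries thus disagreed on Tmx1, Tmx3 and Tmx4 in the same direction, replicate 1 being the highest of all libraries and replicate 2 the lowest, whereas Tmx2 differed between them by only 0.08 on the log2 scale. The median absolute log2 ratio between the vehicle libraries was 0.56 over all genes tested. Transcript length also moved with this ratio. The median log2 ratio (vehicle replicate 1 over 2) was -0.25 for transcripts up to 1 kb, -0.11 for 1 to 2 kb, 0.05 for 2 to 3 kb, 0.20 for 3 to 4 kb, 0.18 for 4 to 5 kb and 0.12 above 5 kb. Beside these, Tmx1 (2795 nt) had 0.66, Tmx3 (4611 nt) 1.24 and Tmx4 (5488 nt) 2.70, and 4.07% of genes over 5 kb had a ratio as high as that of Tmx4. The part of length in these values was not tested. These length classes were chosen after the values were seen.

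**Figure D3:**
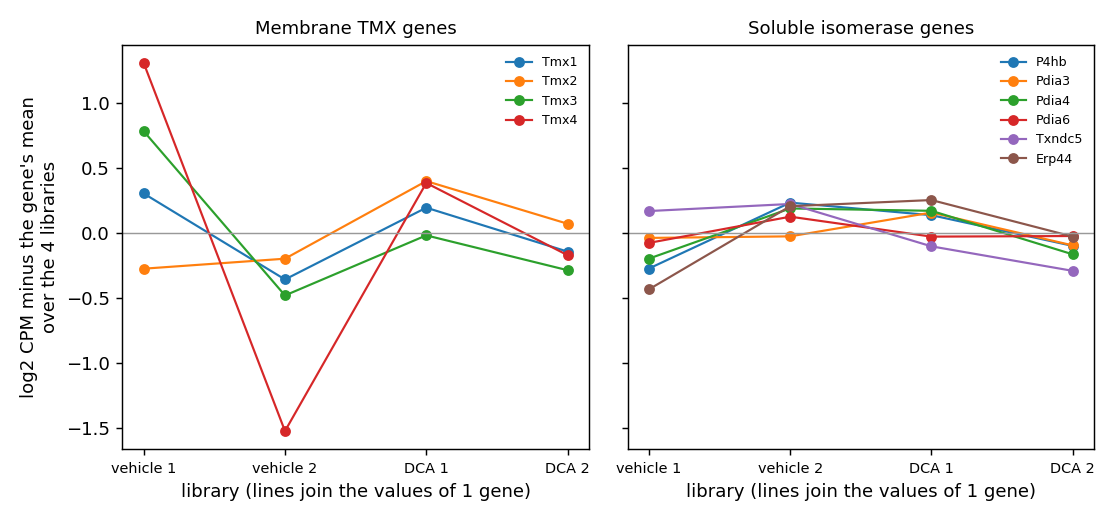
Deviation of each gene's log2 CPM from its mean over the 4 libraries, for TMX genes (left) and soluble isomerases (right). Tmx1, Tmx3 and Tmx4 peak in vehicle replicate 1 and are lowest in vehicle replicate 2, while P4hb and Erp44 are lowest in vehicle replicate 1. Erp44 spans about as wide a band as Tmx1, and Tmx4 the widest.

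Among soluble isomerases, Txndc5, which carries 3 thioredoxin domains, had the most negative estimate. It measured 171.2 and 177.8 CPM in vehicle and 141.8 and 124.4 CPM in DCA libraries. The groups were separate, and within each of them the libraries were close. The fold change was 0.763 (log2 -0.39 ± 0.23, SE; 95% interval -0.95 to 0.17), with an unadjusted p of 0.140 from edgeR, and the log2 value kept its sign when any single library was left out (-0.50 to -0.30). An antisense gene, Gm31834, covers 6.92% of the exonic bases of Txndc5. No row of the deposited counts carried its symbol, and the strand setting of the counting is not given in the sources used here.

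Erp44 had 120.3 and 187.5 CPM in vehicle and 193.8 and 159.4 CPM in DCA libraries. Vehicle replicate 1 was the lowest and the groups overlapped. The log2 fold change was 0.20 ± 0.30 (SE; 95% interval -0.52 to 0.91).

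The 4 most abundant soluble isomerases had estimates near 0. Pdia3 measured 1792 and 1807 CPM in vehicle and 2052 and 1722 CPM in DCA libraries, and its log2 fold change was 0.07 (95% interval -0.40 to 0.53). Pdia6 measured 939.0 and 1080 CPM in vehicle and 971.1 and 974.3 CPM in DCA libraries, with a log2 fold change of -0.05 (95% interval -0.52 to 0.42). For both genes the groups overlapped, and the intervals left room for a change of up to about 0.5 on the log2 scale in either direction. P4hb measured 465.6 and 662.0 CPM in vehicle and 619.0 and 525.4 CPM in DCA libraries, and Pdia4 measured 390.0 and 509.9 CPM in vehicle and 503.5 and 399.1 CPM in DCA libraries. In both, the DCA values lay between the vehicle values. Their log2 fold changes were 0.02 (95% interval -0.59 to 0.63) and 0.0041 (95% interval -0.59 to 0.60). The sign of these last estimates depended on the scaling used.

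**Figure D4:**
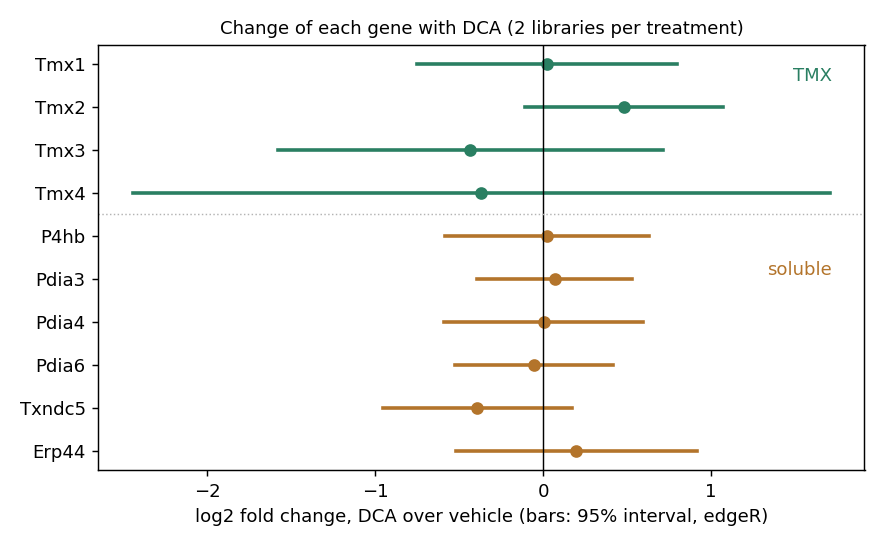
log2 fold change of DCA over vehicle for each gene (points) with 95% intervals from edgeR (bars). Each interval includes 0, and those of Tmx1, Tmx3 and Tmx4 are wider than any of the soluble genes, with Tmx4 running from -2.44 to 1.71.

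The other genes of disulfide formation and ER folding were read from 4 lists, and none of their tested members passed an adjusted p of 0.05 (edgeR). In the rest of the isomerase family, 0 of 7 tested genes had an unadjusted p under 0.05, and 2 had both DCA libraries above both vehicle libraries (18.6% over all genes), with a median log2 fold change of 0.30. These were Erp29 and Pdia5. Erp29, a chaperone with a thioredoxin fold but no active cysteine pair, measured 131.4 and 119.9 CPM in vehicle and 176.6 and 163.7 CPM in DCA libraries. Its log2 fold change was 0.44 ± 0.23 (SE), with an unadjusted p of 0.107 from edgeR. Pdia5 measured 5.39 and 0 CPM (197 and 0 counts) in vehicle and 11.1 and 18.4 CPM (357 and 4415 counts) in DCA libraries. Its unadjusted p was 0.255 from edgeR. These names were chosen after their values were seen. Of the 9 tested genes of disulfide oxidation, 0 had an unadjusted p under 0.05, 1 lay above in DCA (18.6% over all genes) and 2 lay below (14.7% over all genes), and the median was -0.28.

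Ero1a, the oxidase that recharges P4hb, was among the genes below in DCA. It measured 1134 and 1192 CPM in vehicle and 959.1 and 985.0 CPM in DCA libraries, with separate groups. The log2 fold change was -0.26 (95% interval -0.71 to 0.19; unadjusted p = 0.213 from edgeR). Its paralog Ero1b had 44.4 and 23.8 CPM in vehicle and 17.8 and 32.4 CPM in DCA libraries (log2 -0.44, unadjusted p = 0.428 from edgeR). Prdx4, a peroxiredoxin that passes oxidizing equivalents to isomerases, had a log2 fold change of 0.0011 (95% interval -0.67 to 0.67).

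Of the 11 tested genes of the glycoprotein folding cycle, in which Pdia3 and Tmx1 act beside the lectin chaperones, 1 had an unadjusted p under 0.05, with a positive estimate, and the median was 0.02. In DCA, 2 lay above and 2 below, beside 18.6% and 14.7% of all genes, of which 4.27% had an unadjusted p under 0.05. Canx and Calr, the lectin chaperones calnexin and calreticulin, had log2 fold changes of -0.15 (95% interval -0.66 to 0.35) and 0.04 (95% interval -0.46 to 0.53). The gene with the small p was Clgn, a calnexin relative best known from testis (unadjusted p = 0.0049, adjusted p = 0.999 from edgeR). It had 0 and 0 counts in vehicle and 545 and 576 counts (16.9 and 2.40 CPM) in DCA libraries. The filter on mean CPM was thus passed through the DCA libraries alone, and the p-values come from a gene kept by its high group. Against an assumed floor of 3 counts in each vehicle library, Clgn was at least 97.7-fold higher on average. With the same floor it was at least 171-fold higher in DCA replicate 1 and at least 24.3-fold in DCA replicate 2. Its adjusted p was 0.000244 with DESeq2 and 0.0154 with no filter on low counts, and ranged up to 1.0 over the alternatives with all 4 libraries.

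Of the 17 genes of the UPR list, 1 with a positive and 1 with a negative estimate had an unadjusted p under 0.05, 5 lay above and 3 below in DCA, and the median was -0.01. Over all genes tested the shares were 4.27%, 18.6% and 14.7%, and nothing particular to the list was read from its counts. Ddit3, which encodes the stress-induced transcription factor CHOP, measured 8.97 and 9.90 CPM in vehicle and 25.2 and 43.7 CPM in DCA libraries (log2 1.87 ± 0.53, SE; unadjusted p = 0.0113, adjusted p = 0.999 from edgeR). Eif2ak3, which encodes the UPR sensor PERK, measured 14.0 and 30.8 CPM in vehicle and 4.21 and 4.75 CPM in DCA libraries (log2 -2.32 ± 0.71, SE; unadjusted p = 0.0159, adjusted p = 0.999 from edgeR). Both had separate groups, but neither passed the adjusted test.

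The abundant ER chaperones had estimates closer to 0. Hspa5, which encodes BiP, measured 1739 and 1667 CPM in vehicle and 1526 and 1484 CPM in DCA libraries, a log2 fold change of -0.18 (95% interval -0.62 to 0.26; unadjusted p = 0.360 from edgeR). Hsp90b1, which encodes GRP94, had a log2 fold change of -0.22 (95% interval -0.67 to 0.23; unadjusted p = 0.283 from edgeR). For each of them the DCA libraries lay below the vehicle libraries.

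Some markers had small unadjusted p-values beside these values. Of the 13 ILC2 markers, 3 had an unadjusted p under 0.05 (4.27% over all genes), 1 with a positive and 2 with a negative estimate, and the list had 8 positive and 5 negative estimates with a median of 0.06. The log2 fold change was -0.60 for Il1rl1, the IL-33 receptor (unadjusted p = 0.0229, adjusted p = 0.999 from edgeR), and -0.74 for Klrg1 (unadjusted p = 0.0154, adjusted p = 0.999 from edgeR). It was 0.47 for Il2ra, a subunit of the IL-2 receptor (unadjusted p = 0.0459, adjusted p = 0.999 from edgeR), and -1.47 for the lysosomal gene Cd68 (unadjusted p = 0.0381, adjusted p = 0.999 from edgeR). Their part in the values of the members was not tested.

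Of 2115 genes within a factor of 2 of the mean level of Tmx2, the 5 with the most similar pattern over the 4 libraries were Cst3, Gpaa1, Pqbp1, Cdk6 and Elovl5. Likeness was the root mean square difference in log2 level after each gene was centred, and it was 0.0434 for Cst3 and 0.0511 for Elovl5. Cst3, a secreted protease inhibitor, measured 120.9 and 127.6 CPM in vehicle and 179.4 and 151.3 CPM in DCA libraries. As the genes were ranked on 4 values, the likeness is a description of these libraries.

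Promoter windows of RefSeq starts on GRCm38.p6, from 250 bases before to 50 after each start, were searched on both strands for elements known from UPR target genes, since soluble isomerases are known UPR targets. Windows were found for 9 of the 10 members. The ER stress element, CCAAT followed by any 9 bases and CCACG, was present in 0.119% of all 32851 windows and among the members in that of Pdia6 alone. Its shorter form, ATTGGNCCACG, was present in 0.0365% of windows and in 0 members. A UPR element, TGACGTGG, was present in 0.676% of windows, and a C/EBP-ATF response element, TGATGNAA, in 3.97%. Both were found in windows of Txndc5, at different annotated starts. The UPR element lies inside the annotated span of the gene (chr13:38500266-38528824, minus strand), before an internal start. The C/EBP-ATF match lies before the 5′ end of that span. Which start these cells used was not tested. The matches are printed with the motif in capitals and 4 bases on either side.
Pdia6 ER stress element (chr12:17266487-17266513, plus strand): gagaCCAATGAAAGGCGGCCACGgcgt
Txndc5 UPR element (chr13:38528041-38528056, minus strand): ccgcTGACGTGGcgct
Txndc5 C/EBP-ATF element (chr13:38528918-38528933, plus strand, opposite to the gene): ggtgTGATGAAAccac
The matches began 98 bases before the start in Pdia6 and 138 and 105 bases before the respective starts in Txndc5. No TMX window that was read held any of these elements. The core CCACG, which is also the end of the ER stress element, was present in 32.8% of windows. Counted by gene, it was present in 35.5% of all genes with a window and in 6 of the 9 members with one. A match describes these letters only, and the member with the ER stress element, Pdia6, had a log2 fold change of -0.05.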

How the data were processed

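Total RNA was converted to full-length cDNA with a SMART-Seq HT kit and tagmented into paired-end Nextera XT libraries. Per the labels' processing notes, reads were trimmed with cutadapt 1.9, aligned with HISAT2 2.2.1 and placed on mm10, and the table the authors deposited holds whole-number counts of reads per gene. The counting tool, its annotation and its strand setting are not given in the sources used here. Genes with 2 counts outnumbered genes with 1 count in every library, so counts may hold both mates of a pair, and intervals on counts cover counting error only.

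Counts were analysed in R 4.3.3 with edgeR 4.0.16 (TMM scaling, two-sided quasi-likelihood tests, p-values adjusted by Benjamini-Hochberg) wherever a gene's mean CPM reached 1. With 2 libraries per treatment an exact permutation test cannot go below p = 0.333. Groups came from the sample titles. Levels between genes were divided by the length of the main GENCODE vM21 transcript. The fit was tested on simulated data. Text named all members, 7 set genes of ER folding (Ero1a, Ero1b, Prdx4, Canx, Calr, Hspa5 and Hsp90b1), list genes with an unadjusted p under 0.05 and the 5 genes most like Tmx2. Erp29, Pdia5 and Trib3, markers given at or near 0, and markers given as the source of a summed level were named after their values were seen. The members and lists were chosen with earlier results of these data known. DESeq2 1.42.0, limma 3.58.1, other scalings and filters, other lengths, a replicate block and leaving out each library were alternatives.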

Additional observations from a re-analysis of the deposited data

How the results depend on the processing

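None of the 10 members passed an adjusted p of 0.05 under the 13 alternatives run, and Tmx2 and Txndc5 kept their sign in each. Estimates near 0 turned sign with the scaling. P4hb was -0.0065 and Pdia4 -0.023 on the log2 scale with median-of-ratios size factors and with DESeq2, and Pdia4 was -0.00073 with total-count scaling. Tmx4 was 0.18 and 0.21 with limma at pseudocounts of 1 and 0.1.

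With the replicate block Tmx4 was 0.21, Tmx2 was 0.47 (unadjusted p = 0.0861), 0 genes passed an adjusted p of 0.05 and 450 had an unadjusted p under 0.05. Deviations of same-numbered libraries correlated at 0.0197, and no source used here says that a number marks a shared culture, animal or day.

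Leaving out each library in turn gave log2 fold changes of -0.27 to 0.37 for Tmx1, 0.30 to 0.64 for Tmx2, -0.93 to 0.31 for Tmx3, -1.18 to 1.63 for Tmx4, -0.24 to 0.30 for P4hb, -0.074 to 0.19 for Pdia3, -0.20 to 0.21 for Pdia4, -0.18 to 0.051 for Pdia6, -0.50 to -0.30 for Txndc5 and -0.11 to 0.55 for Erp44. The lone library left in a treatment is assumed to vary like the others. Without vehicle replicate 2, Tmx3 and Tmx4 had an unadjusted p under 0.05, and without vehicle replicate 1 only Tmx4 did, with the opposite sign, so the number of such members was 0 to 2. The median log2 fold change of the TMX genes ran from -0.60 to 0.39, that of the soluble genes from -0.19 to 0.15, and the log2 ratio of TMX to soluble sums between -0.10 (vehicle replicate 2 left out) and 0.53 (vehicle replicate 1 left out). Over all genes, 0 to 28 passed an adjusted p of 0.05, the 28 being without vehicle replicate 1, where 1 gene of the rest of the isomerase family (Pdia5, adjusted p = 0.0493 from edgeR) and 1 of the UPR list (Trib3, adjusted p = 0.0328 from edgeR) passed. Both lists had 0 otherwise, and these genes were at 0 counts in vehicle replicate 2, the lone vehicle library left.

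With no filter on low counts 36 genes passed an adjusted p of 0.05, and with DESeq2 126 did. In each case 1 was in the glycoprotein folding list, Clgn. No member was among them. The cause of these differences was not tested. The share of Tmx2 in the TMX sum of each library averaged 55.1% per length and 45.6% without division by length. With 2 libraries per treatment, the median 95% interval reached 0.60 on the log2 scale to either side for the members. It reached 1.16 for the tested genes with counts in every library. The part of library depth in these widths was not tested.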
